A study of Mus musculus with 28 samples.

Results

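Livers of 4 mice given a middle dose of tropifexor were compared with livers of 4 vehicle-treated mice on the same steatohepatitis diet, and all 47719 genes of that comparison were considered. These 8 livers are 8 of the 28 in the series and make up 2 of its 7 groups of 4. All animals were male C57BL/6 mice of about 6 weeks at the start. Both groups were fed for 26 weeks on chow of which fat gave 40% of the calories and which held, by weight, 22% fructose and 2% cholesterol. This diet produces nonalcoholic steatohepatitis (NASH), in which fat accumulation is joined by inflammation and fibrosis. The tropifexor animals then received the compound by mouth once a day for 4 weeks. The mid dose was taken as 0.3 mg/kg, because the labels list 0.1, 0.3 and 0.9 mg/kg for every tropifexor sample and the 3 doses were assigned to the low, mid and high groups in rising order. The vehicle samples carry tropifexor in their treatment field while their titles name vehicle. The titles were followed, the design text was taken to mean that vehicle animals ate the NASH diet, and the direction of every change given here rests on that reading. Where other groups are used, they are the low-dose and high-dose tropifexor groups, a group given obeticholic acid (OCA) at 25 mg/kg with its own vehicle group, all on the NASH diet, and a lean control group on a diet with 10% of its calories from fat and no fructose or cholesterol. The model is diet alone, without a transgene or a toxin, in 1 sex of 1 strain.

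Tropifexor (LJN452) is an agonist of the farnesoid X receptor (FXR, encoded by Nr1h4), the nuclear receptor through which hepatocytes and ileal enterocytes sense bile acids. Activated FXR pairs with the retinoid X receptor on inverted repeats of the hormone-receptor motif and raises bile acid export pumps and the repressor SHP (encoded by Nr0b2). Bile acid synthesis from cholesterol falls in turn, through SHP in the liver and through the intestinal hormone FGF15 acting on FGFR4 and beta-Klotho. OCA is a derivative of a natural bile acid that activates the same receptor, whereas tropifexor does not have a bile acid skeleton. In steatohepatitis, activated stellate cells lay down collagen, and recruited macrophages join the resident Kupffer cells.

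The authors' deposited table gives 1 FPKM per gene and group (fragments counted per kilobase of transcript, scaled to library size), so no value of a single animal could be shown, and variation among animals is reflected solely in the authors' Cuffdiff p-values. Sequencing depth per animal is unknown for the same reason. Every FPKM, fold change and q of a single comparison below is the value in the authors' deposited tables. FPKM summed to 736140 in the vehicle group and 863848 in the mid-dose group, and genes of the mitochondrial genome made up 17.4% and 20.5% of those sums. Liver identity held in both groups: the 7 hepatocyte markers lay between 101 and 30921 FPKM with vehicle and between 221 and 37030 at the mid dose, none at 0. Adiponectin (Adipoq), leptin (Lep) and perilipin 1 (Plin1), which mark adipose tissue, summed to 0.0843 and 0.0347 FPKM. Of 4 pancreatic markers, Prss2, Cpa1 and Pnlip were listed at 0 with vehicle and Pnlip also at the mid dose, while Cela1 stood at 7.79 and 6.30 FPKM. Of 4 intestinal markers, Vil1, Cdx2 and Muc2 were under 1 FPKM in both groups, while Fabp2 stood at 159 and 158 FPKM. The neutrophil marker Ly6g was at 0 in both.

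Of 15686 genes tested, 4319 (27.5%) were called different, which means a status of OK and a q (the Cuffdiff p adjusted over all tested genes) under 0.05. The mid-dose group was higher for 1849 genes (11.8%) and lower for 2470 (15.7%). These shares stand beside every mid-dose list count below. The median called gene changed by 0.93 on the log2 scale, 1958 called genes changed by at least 1, and the median of all tested genes was -0.01. The smallest p of the table, 5e-05, was shared by 2172 genes and gave a q of 0.000361, which is the q of every called gene named below for which no other q of this comparison is printed. The standard error (SE) beside a log2 fold change is approximate: it was derived from the authors' fold change and test statistic with 1 factor common to all genes, so it can disagree with a gene's own q, which alone decided the call. The labels number the samples of a group as replicates, so the p-values measure the spread between these samples. Of the tested genes, 5935 have an exon that overlaps an exon of another gene in GENCODE M21. The sources used here do not give the strand setting of the counts, so reads of such genes could belong to the partner. Among the genes named below, Col3a1, Cyp2c29, Gclm, Glul, Gm24299, Itgam, Mafg, Onecut1, Pdgfra, Snora33, Spp1, Srebf1 and mt-Nd1 overlap a gene on their own strand. A230005M16Rik, Abcb11, Abcb1a, Acadvl, Akr1b7, Axin2, Bhlhe41, Bmyc, Ccnd1, Cd3e, Cdkn1a, Ch25h, Ciita, Col4a1, Ctgf, Cyp2a4, Cyp2f2, Cyp2u1, Dnah1, Elovl3, Fcna, Fcnaos, Fgg, Fhit, Fitm2, Fn1, Gbp2, Hmgcs1, Idi1, Il1b, Irf7, Lox, Mlxipl, Mmp12, Mmp7, Mogat1, Mt2, Nlrc5, Nr1i3, Reln, Rgs8, Slc1a2, Slc51b, Slco2b1, Stab2, Tap1, Tmprss4 and mt-Co1 overlap one on the opposite strand, and all of these values carry that uncertainty.

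**Figure D1:**
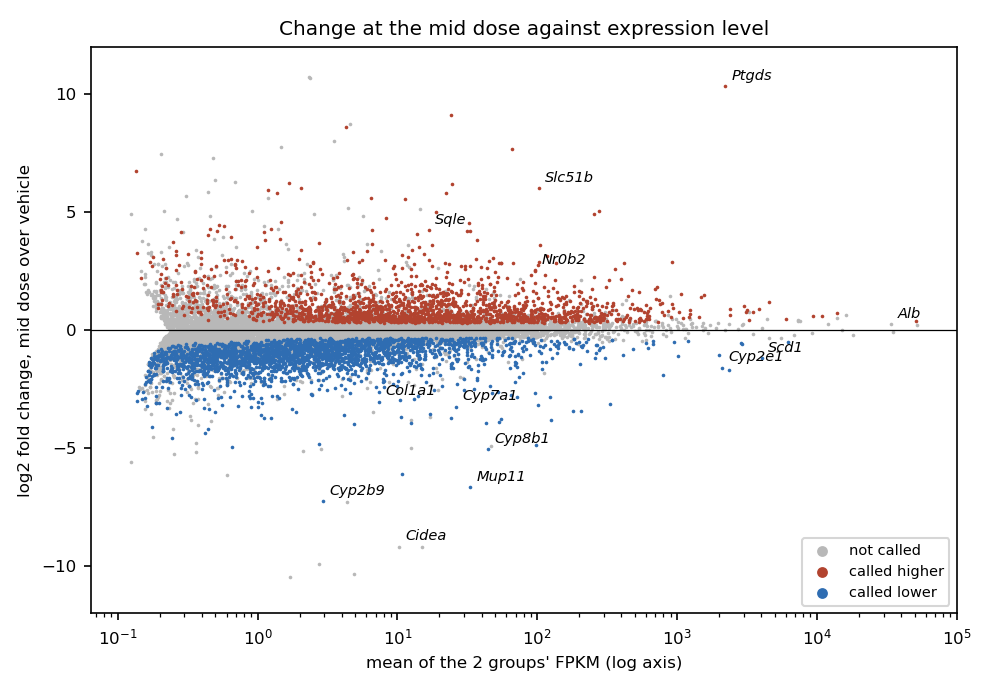
Log2 fold change of the mid dose over vehicle against the mean FPKM of the 2 groups (log axis), 1 point per tested gene with a finite change within 12 log2 units, coloured by call. 1849 genes were called higher and 2470 lower. A further 37 genes, none of them called, lie past the axis, and the largest called rise is that of Ptgds.

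Of 16 tested genes that FXR is known to induce, 10 rose at the mid dose, 2 fell and 4 were not called, and the bile acid synthesis enzymes Cyp7a1 and Cyp8b1 fell. Nr0b2 rose from 28.3 to 166 FPKM (log2 fold change 2.55, SE 0.13). Slc51b, the beta subunit of the basolateral bile acid exporter OST, rose from 3.15 to 203 FPKM (6.01, SE 0.25), a 64.4-fold change. Its partner subunit gene Slc51a was at 0 with vehicle and 0.0088 FPKM at the mid dose and was not tested. The bile salt export pump Abcb11 rose from 144 to 653 FPKM (2.18, SE 0.29). The phospholipid flippase Abcb4 rose from 98.8 to 215 FPKM (1.12, SE 0.16). Akr1b7, an aldo-keto reductase, rose from 0.793 to 44.1 FPKM (5.80, SE 0.21). The list had a median log2 fold change of 0.60 against -0.01 over all tested genes. The lower members were the glucuronosyltransferase Ugt2b1 (-2.84) and the oxidase Cyp3a11 (-0.50, q = 0.0164), while the conjugate exporter Abcc2 stood at 110 and 112 FPKM and was not called.

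The receptor's own circuit moved in both directions. Nr1h4 itself fell from 58.4 to 24.1 FPKM (-1.27, SE 0.13), as did its partner Rxra (-0.45, q = 0.00694) and the FGF15 receptor Fgfr4 (-0.80). The co-receptor Klb rose (0.57), and so did Hnf4a, a hepatocyte nuclear receptor (101 to 221 FPKM, 1.13), Mafg, which represses bile acid synthesis genes (24.7 to 68.4 FPKM, 1.47), and the xenobiotic receptor PXR, Nr1i2 (21.5 to 101 FPKM, 2.23). Nr5a2 and Nr1i3 were not called. Over the list of FXR, its partners and its feedback regulators, 5 of 11 were higher and 4 lower.

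Cyp7a1, the rate-limiting enzyme of the classical bile acid pathway, fell from 47.6 to 5.06 FPKM (-3.24, SE 0.46), a 9.42-fold difference. Cyp8b1, the sterol 12-alpha-hydroxylase that directs synthesis to cholic acid, fell from 86.8 to 2.65 FPKM (-5.04, SE 0.17), a 32.8-fold difference. Cyp7b1 of the alternative pathway fell less, from 42.7 to 27.4 FPKM (-0.64, SE 0.13), and the low-level cholesterol hydroxylases Ch25h (0.511 to 0.0458 FPKM, -3.48, q = 0.00736) and Cyp46a1 (-1.57, q = 0.000361) also fell. Other enzymes of the pathway rose: the delta-4 reductase Akr1d1 went from 50.1 to 218 FPKM (2.12, SE 0.15), the muricholic acid enzyme Cyp2c70 from 226 to 455 (1.01), and Cyp27a1 from 232 to 367 (0.66, q = 0.000681). The list of synthesis and conjugation thus split, with 6 of 19 genes higher, 7 lower and 6 not called.

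Uptake and export carriers differed by member. Slc10a1 (NTCP), the main sodium-dependent bile acid importer, stood at 225 FPKM with vehicle and 263 at the mid dose and was not called (0.23, SE 0.14, q = 0.235). The organic anion carrier Slco1a1 fell from 23.1 to 3.1 FPKM (-2.90, SE 0.15), while Slco1b2 (0.50, q = 0.0139), Slco2b1 (0.69, q = 0.00237) and Slco1a4 (0.52, q = 0.0487) rose. Against the OCA vehicle group the value for Slco1a4 was -0.19, the opposite sign. Among 11 tested exporters 5 rose and 3 fell. The drug efflux pump Abcb1a rose from 3.41 to 62.4 FPKM (4.20, SE 1.78), and the flippase Atp8b1 from 6.26 to 16.5 (1.40). The basolateral conjugate pumps Abcc3 (99 to 47.8 FPKM, -1.05, q = 0.00128) and Abcc4 (-1.08, q = 0.000361) and the efflux transporter Abcg2 (-0.54, q = 0.00912) fell.

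**Figure D2:**
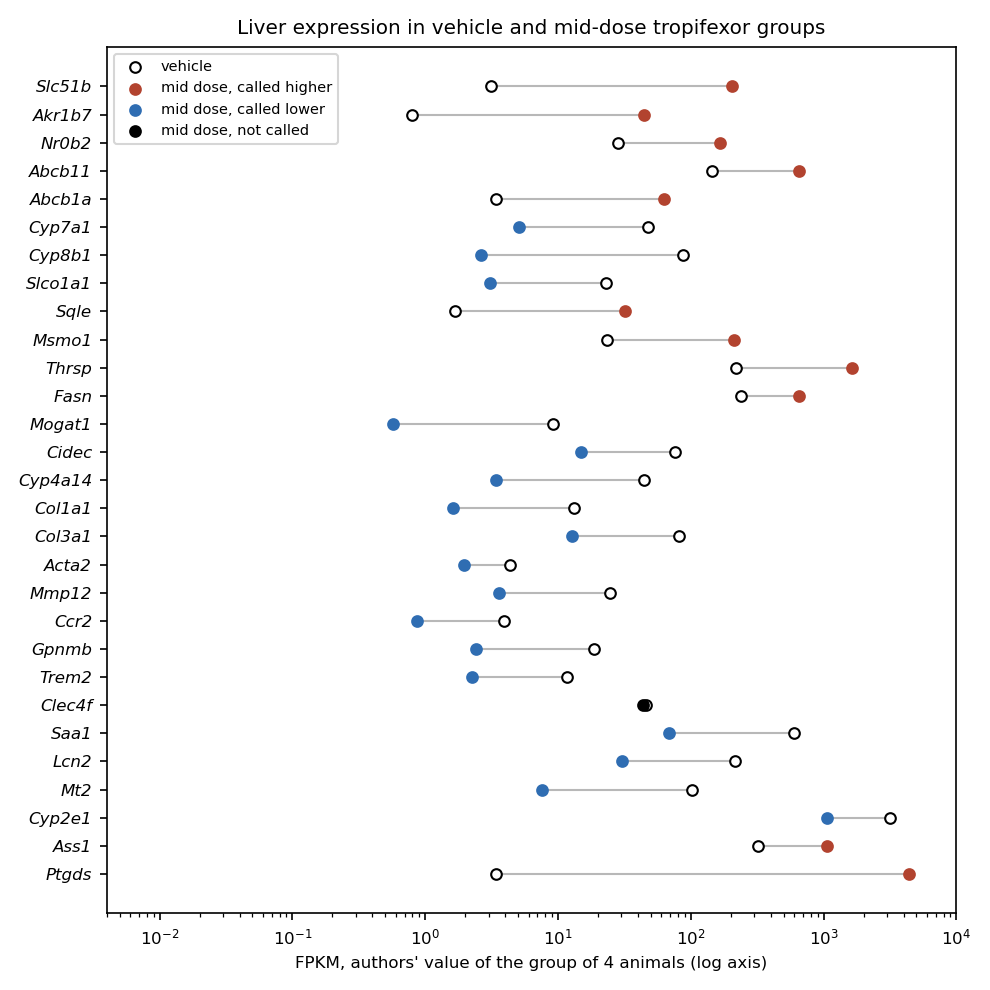
FPKM of the vehicle group (open circles) and the mid-dose group (filled circles) for 29 named genes, on a log axis, with 1 authors' value per group of 4 animals and therefore no error bars. Red marks genes called higher, blue genes called lower and black a gene not called. Ptgds and Slc51b show the widest rises at high final levels, Cyp8b1 falls from 86.8 to 2.65, and Clec4f stays at 46.3 and 43.3.

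Promoters of Slc51b and Abcb11 are printed because these exporters rose with Nr0b2 and because each holds a near match to an inverted repeat of the FXR type. The 250 bases before the start of each RefSeq gene (build GRCm38.p6) were searched on both strands for an inverted repeat, GGTCA and TGACC with any 1 base between them, and capitals mark the match. The Slc51b promoter lies at chr9:65422774-65423023 on the minus strand, with the match 186 to 176 bases before the start and 1 mismatch. The Abcb11 promoter lies at chr2:69342617-69342866 on the minus strand, with the match 62 to 52 bases before the start and 1 mismatch.
Slc51b: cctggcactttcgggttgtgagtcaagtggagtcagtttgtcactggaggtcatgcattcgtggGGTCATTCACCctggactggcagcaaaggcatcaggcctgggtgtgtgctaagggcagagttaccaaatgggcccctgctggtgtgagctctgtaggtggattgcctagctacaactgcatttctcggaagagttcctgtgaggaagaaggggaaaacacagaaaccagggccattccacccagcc
Abcb11: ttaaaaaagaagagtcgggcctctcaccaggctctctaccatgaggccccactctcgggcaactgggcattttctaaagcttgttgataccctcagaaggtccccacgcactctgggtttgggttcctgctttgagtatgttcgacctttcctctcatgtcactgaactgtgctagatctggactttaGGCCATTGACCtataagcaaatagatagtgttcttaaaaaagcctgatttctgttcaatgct
At 1 mismatch or fewer, 21 of 1320 promoters of genes called higher held the repeat (1.59%), as did 9 of 1788 promoters of genes called lower (0.503%). The repeat was held by 85 of 10529 promoters of tested genes (0.807%) and 197 of all 27025 promoters (0.729%). Among 16 FXR-induced genes with a promoter in the table, 3 held it, namely Slc51b, Abcb11 and Slco1b2. At up to 2 mismatches the repeat was found for 171 of these genes called higher, 193 of those called lower (10.8%) and 10.1% of all promoters. These matches describe letters in a 250-base window only, and the promoters of Nr0b2 and Ptgds held no match at up to 2 mismatches.

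Nearly the whole cholesterol synthesis pathway was higher at the mid dose: 23 of 25 genes rose, none fell, and the median log2 fold change was 2.09. Sqle, the squalene epoxidase and a flux-controlling step, rose from 1.69 to 31.7 FPKM (4.23, SE 0.16), a 18.8-fold change. The C4-methylsterol oxidase Msmo1 rose from 23.4 to 210 FPKM (3.16, SE 0.22), and the isomerase Idi1 from 0.14 to 1.09 (2.96, SE 0.82). The regulator Srebf2 (7.65 to 18 FPKM, 1.23) and its feedback anchor Insig1 (1.26) rose as well. Of the members not called, Mvd (3.04 and 20.4 FPKM, q = 0.337) missed the threshold. Lean control values put these levels in place: with vehicle Sqle was far below lean (log2 fold change -3.95), and at the mid dose it stood at 0.28 against lean (q = 0.0729, not called). Msmo1 was -2.15 against lean with vehicle and 1.01 at the mid dose.

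The promoter of Hmgcs1, the synthase at an early step of the pathway, which rose from 28.8 to 165 FPKM (2.52), is printed because these genes moved together and it holds a near match to the sterol regulatory element, searched as ATCAC, any base and CCAC. It lies at chr13:119690101-119690350 on the plus strand, and the match (capitals, 1 mismatch) lies 138 to 129 bases before the start.
Hmgcs1: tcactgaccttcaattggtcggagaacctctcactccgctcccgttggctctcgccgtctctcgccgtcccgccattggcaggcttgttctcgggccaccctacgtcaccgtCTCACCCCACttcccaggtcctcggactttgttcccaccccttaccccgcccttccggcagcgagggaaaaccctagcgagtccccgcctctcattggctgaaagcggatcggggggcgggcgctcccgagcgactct
At up to 1 mismatch on either strand, 4 of the 17 cholesterol synthesis genes with a promoter in the table held this element (23.5%), against 5.14% of all 27025 promoters. The share was 6.97% among genes called higher and 5.43% among genes called lower.

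Fatty acid and triglyceride synthesis did not move as a block, with 9 of 20 genes higher, 4 lower and 7 not called (median 0.30). Over all tested genes 11.8% were higher and 15.7% lower. Thrsp, a thyroid-hormone-responsive lipogenic protein, rose from 219 to 1631 FPKM (2.90, SE 0.15). Acly, which makes cytosolic acetyl-CoA, rose from 58.4 to 202 FPKM (1.79, SE 0.16), the acetyl-CoA carboxylase Acacb from 12 to 37.1 (1.63), and fatty acid synthase Fasn from 237 to 655 (1.47, SE 0.40, q = 0.00184). The desaturase Scd1, among the most abundant transcripts, fell from 5611 to 2460 FPKM (-1.19, SE 0.32, q = 0.00156). The triglyceride enzymes Mogat1 (9.19 to 0.576 FPKM, -4.00, SE 1.27), Lpin1 (-1.12) and Dgat2 (190 to 126 FPKM, -0.60, q = 0.000681) fell. The lipogenic regulators Srebf1 (341 and 241 FPKM, -0.50, q = 0.196) and Mlxipl (-0.43) were not called.

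Lipid droplet genes fell into 3 higher, 2 lower and 7 not called of 12. Over all tested genes 11.8% were higher and 15.7% lower, so the count of lower members is near that share. Cidec, which enlarges droplets by fusion, fell from 76.3 to 14.9 FPKM (-2.35, SE 0.17), and its relative Cidea was 20.6 with vehicle and 0.0356 at the mid dose, a log2 fold change of -9.17 that was not called (SE 2.00, q = 0.297). Fitm2, needed for droplet budding, also fell (15.2 to 6.89 FPKM, -1.14), whereas the oxidative-tissue perilipin Plin5 (19.5 to 39.2 FPKM, 1.01) and the triglyceride lipase Pnpla2 (0.58) rose. Among genes of PPAR alpha and fatty acid oxidation 10 of 21 fell and 3 rose. The omega-hydroxylases Cyp4a14 (44.7 to 3.43 FPKM, -3.70, SE 0.16) and Cyp4a10 (90.8 to 14.7, -2.62), which have near-identical relatives, and the thioesterase Acot1 (4.71 to 0.832, -2.50) fell most. Ppara itself fell from 52.8 to 31.8 FPKM (-0.73, q = 0.028). The mitochondrial entry and beta-oxidation enzymes Cpt1a (-0.08), Acadm (-0.14) and Acadvl (0.02) were not called, and the hormone Fgf21 rose from 4.94 to 18.9 FPKM (1.94, SE 0.16).

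In glucose production, 5 of 10 genes rose and 2 fell, where 11.8% of all tested genes rose and 15.7% fell. The same shares stand beside the lipoprotein counts. The glucose transporter Slc2a2 rose from 149 to 334 FPKM (1.17) and the glucose-6-phosphate carrier Slc37a4 from 56 to 102 (0.87), while glucose-6-phosphatase G6pc fell from 68.4 to 36.7 (-0.90). Of 18 lipoprotein genes 7 rose, 2 fell and 9 were not called. The HDL receptor Scarb1 rose from 107 to 288 FPKM (1.43) and hepatic lipase Lipc from 66.9 to 149 (1.15). The VLDL receptor Vldlr (1.28 to 0.0412 FPKM, -4.95, SE 1.51) and lipoprotein lipase Lpl (35.2 to 6.87, -2.36, SE 0.13), both low in healthy hepatocytes, fell. The structural apolipoproteins Apob (0.02), Apoa1 (0.39) and Apoe (-0.20) were not called.

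Collagens and other matrix genes were lower almost throughout: 27 of 30 fell, none rose, and the median log2 fold change was -1.73. Fibrillar Col1a1 fell from 13.1 to 1.6 FPKM (-3.03, SE 0.18) and Col3a1 from 82 to 12.8 (-2.68, SE 0.27). The cross-linking enzyme Lox fell from 0.642 to 0.0831 FPKM (-2.95), and the matrix proteases Mmp13 (1.87 to 0.259, -2.86) and Mmp12 (24.7 to 3.57, -2.79) fell with them. Basement membrane Col4a1 fell less (10.8 to 4.56 FPKM, -1.25). The exceptions were the protease inhibitor Timp1 (7.02 and 1.01 FPKM, -2.80, SE 1.12, q = 0.186), Loxl4 (-0.39) and fibronectin Fn1, which hepatocytes also secrete (330 and 469 FPKM, 0.51, q = 0.0624). Relative to lean control, Col1a1 was 3.16 with vehicle and 0.13 at the mid dose (q = 0.678, not called).

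Stellate cell and myofibroblast genes moved with the matrix, with 13 of 15 lower, none higher and a median of -1.15. Smooth muscle actin Acta2, a sign of stellate cell activation, fell from 4.37 to 1.95 FPKM (-1.16, SE 0.18). Against lean control, Acta2 was not called with vehicle (-0.05, q = 0.921) and was lower at the mid dose (-1.21, q = 0.000418). The growth factor receptors Pdgfra (-1.26) and Pdgfrb (-1.09), the pericyte gene Rgs5 (13.9 to 5.76 FPKM, -1.27) and connective tissue growth factor Ctgf (4.5 to 1.35, -1.74) fell too. The stellate cell marker Reln fell from 32.1 to 14.5 FPKM (-1.15, q = 0.00736), whereas Lrat, which stores vitamin A as ester (4.51 and 1.66, q = 0.606) and Colec11 (36.5 and 30.6) were not called. The 5 stellate cell markers summed to 80.7 FPKM with vehicle and 50.5 at the mid dose. Here and in the groups below, fewer cells of a type and less RNA per cell cannot be told apart in bulk liver.

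Inflammatory mediators were lower at the mid dose: 20 of 23 tested genes fell, 1 rose, and the median was -1.37. The monocyte chemokine Ccl2 fell from 8.41 to 2.75 FPKM (-1.62, SE 0.21) and its receptor Ccr2 from 3.95 to 0.861 (-2.20, SE 0.17). The neutrophil chemokine Cxcl1 fell from 12.8 to 3.05 FPKM (-2.07), Ccl7 from 1.72 to 0.388 (-2.15), Ccl4 from 2.36 to 0.584 (-2.02) and Tnf from 0.683 to 0.227 (-1.59). The cytokine Il18 was the member that rose (15.8 to 28.5 FPKM, 0.85), while Il1b (-0.69) and Ccl22 (-1.06) were not called.

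Macrophage genes fell by 17 of 20, with 1 higher and a median of -1.16, and the list summed to 620 FPKM with vehicle and 286 at the mid dose. Gpnmb (18.6 to 2.39 FPKM, -2.96, SE 0.18) and Trem2 (11.8 to 2.24, -2.39, SE 0.19), both found on lipid-associated macrophages of fatty liver, fell most. Galectin-3 (Lgals3) went from 48 to 11.4 FPKM (-2.07), the integrin Itgam from 1.33 to 0.33 (-2.01, SE 0.66) and the pan-macrophage receptor Adgre1 from 12.6 to 5.62 (-1.16, SE 0.14). Among resident Kupffer cell markers, Clec4f (46.3 and 43.3 FPKM, -0.10, SE 0.19, q = 0.792) and Timd4 (1.61 and 1.44, -0.16, SE 0.20, q = 0.651) were not called, but Vsig4 was called lower. Of the 6 macrophage markers checked, which include these genes and Adgre1, 4 fell and none rose. The scavenger receptor Cd163 rose (0.777 to 1.25 FPKM, 0.69, q = 0.016).

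Lymphocyte and neutrophil genes were low in both groups, and 10 of 14 tested fell with none higher. The T cell chain Cd3e fell from 0.536 to 0.147 FPKM (-1.86), the cytotoxic granule gene Nkg7 from 3.05 to 0.945 (-1.69) and the neutrophil calprotectin subunit S100a8 from 2.89 to 1.13 (-1.35, q = 0.00184), whereas the B cell marker Cd79a was not called. Of 13 antigen presentation genes 7 fell, and these 7 belong to the class II pathway, among them H2-Aa (164 to 52.5 FPKM, -1.64), H2-Eb1 (96 to 31.4, -1.61), H2-DMb1 (-1.85) and the transactivator Ciita (1.36 to 0.397, -1.78, q = 0.00367). The class I genes B2m (0.04), Tap1 (-0.42) and Nlrc5 (0.30) were not called, and in a wider class I family, chosen after its values were seen, 7 of 19 tested genes rose and 2 fell. The difference between the classes was not tested. Of 15 interferon-response genes 4 were higher, where 11.8% of all tested genes were, 1 was lower and 10 were not called (median 0.18). Ifit1 rose from 7.99 to 13.1 FPKM (0.71) and Irf7 from 39.6 to 62.3 (0.66, q = 0.0141), and the guanylate-binding protein Gbp2, which responds to interferon gamma, fell from 9.51 to 5.39 (-0.82).

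**Figure D3:**
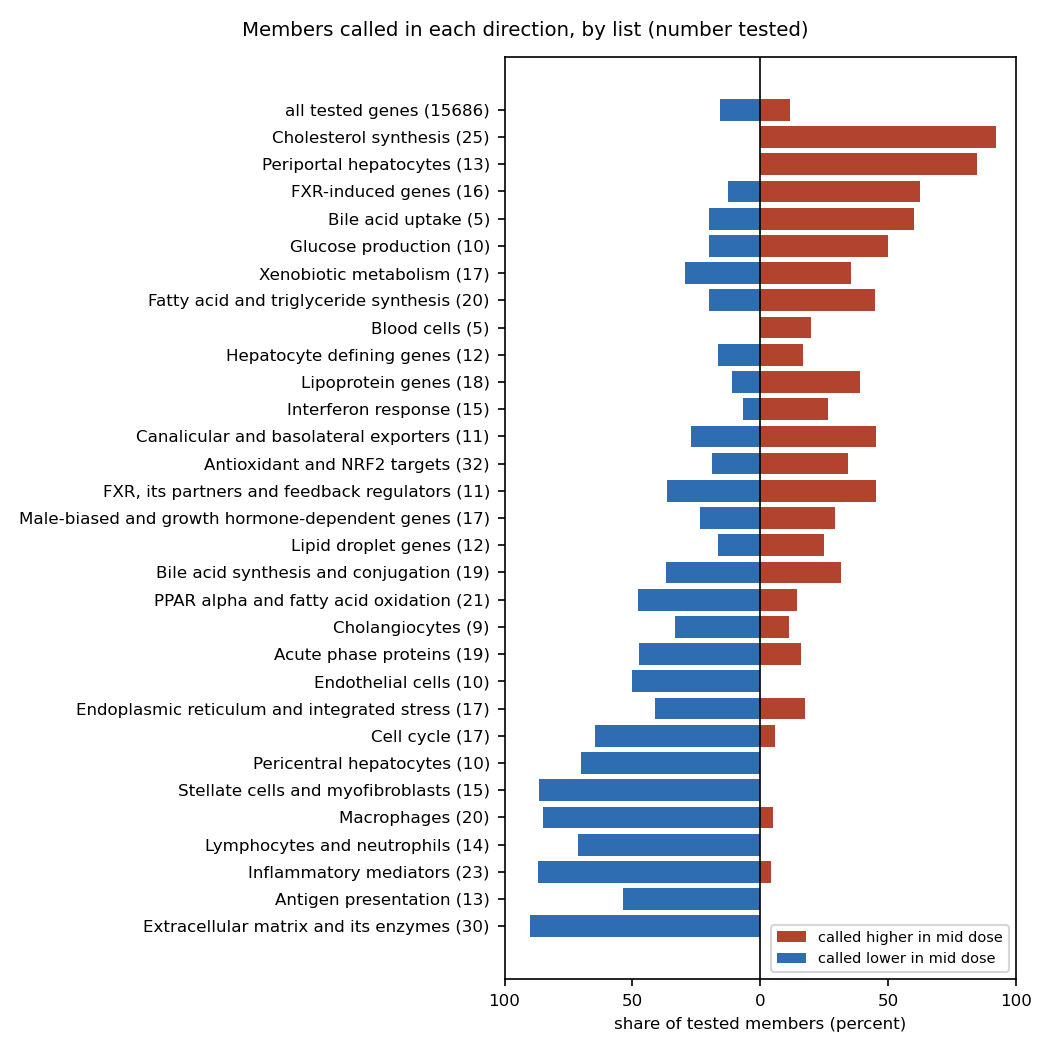
Share of tested members called higher (red, to the right) or lower (blue, to the left) at the mid dose, for each list with at least 5 tested members and for all 15686 tested genes (top bar), with the number tested in parentheses. Cholesterol synthesis (23 of 25 higher) and the matrix list (27 of 30 lower) mark the ends.

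Antioxidant genes, which the title of the series names, did not move one way: 11 of 32 tested rose, 6 fell and 15 were not called (median 0.02). Over all tested genes 11.8% rose and 15.7% fell. Glutathione transferases account for 5 of the 11 rises, with Gsta2 going from 13.4 to 96.8 FPKM (2.86, SE 0.14), Gsta4 from 87.1 to 420 (2.27, SE 0.13) and Gstm3 from 112 to 379 (1.76, SE 0.14), and these close paralogs could share reads. The modifier subunit of glutamate-cysteine ligase, Gclm, rose from 166 to 328 FPKM (0.98, q = 0.0175) while its catalytic subunit Gclc fell from 98.2 to 48.6 (-1.02, SE 0.13). Nqo1, a standard NRF2 target, stood at 7.67 and 9.46 FPKM and was not called (0.30, SE 0.14, q = 0.108). Heme oxygenase Hmox1 fell from 21.6 to 9.27 FPKM (-1.22, SE 0.14). Metallothioneins fell furthest, Mt1 from 183 to 20.2 FPKM (-3.18, SE 0.16) and Mt2 from 102 to 7.56 (-3.76, SE 0.18). Thioredoxin reductase (Txnrd1, 0.69, q = 0.000361) and glutathione peroxidase (Gpx1, 0.66, q = 0.000987) rose.

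Enzymes of xenobiotic metabolism went both ways, 6 of 17 higher and 5 lower, where 11.8% of all tested genes were higher and 15.7% lower. The same shares stand beside the stress and acute phase counts. The retinoic acid hydroxylase Cyp26a1 rose from 1.29 to 9.42 FPKM (2.87, SE 0.18). Cyp2c29 fell from 328 to 30.2 FPKM (-3.44, SE 0.15) and the female-biased Cyp2b9 from 5.87 to 0.0388 (-7.24, SE 0.50). Both have near-identical relatives that could share reads. In the list of endoplasmic reticulum and integrated stress, 7 of 17 fell and 3 rose. The chaperone Hspa5 fell from 356 to 202 FPKM (-0.82) and Chac1 from 2.47 to 0.709 (-1.80), while Atf3 rose from 4.6 to 13.9 (1.59) and Trib3 from 4.57 to 9.5 (1.06). Acute phase proteins were lower in 9 of 19 and higher in 3. Serum amyloids Saa1 (596 to 68.5 FPKM, -3.12, SE 0.15) and Saa2 (378 to 35.4, -3.42), which are close paralogs, and the siderophore binder Lcn2 (216 to 30.3, -2.83, SE 0.14) fell, as did haptoglobin, Hp (2698 to 1308, -1.04). The fibrinogen chains Fga, Fgb and Fgg were not called, and Socs3, an inhibitor of cytokine signalling, rose from 6.92 to 21.6 FPKM (1.64, q = 0.000681).

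Hepatocyte zonation genes moved in opposite directions. Periportal genes were higher in 11 of 13, none lower, with a median of 0.84, and their sum went from 3513 to 7450 FPKM. The urea cycle enzymes Ass1 (319 to 1068 FPKM, 1.74, SE 0.15) and Cps1 (438 to 1061, 1.28, SE 0.19), histidase Hal (121 to 532, 2.13) and Cyp2f2 (542 to 1582, 1.55) rose. Pericentral genes were lower in 7 of 10, none higher, with a median of -0.98, and their sum, mostly Cyp2e1, went from 4167 to 1712 FPKM. Cyp2e1 fell from 3165 to 1054 FPKM (-1.59, SE 0.18), the glutamate carrier Slc1a2 from 28.3 to 7.94 (-1.83), the R-spondin receptor Lgr5 from 1.68 to 0.553 (-1.60) and glutamine synthetase Glul from 367 to 224 (-0.71, q = 0.00184). The Wnt target Axin2 (-0.18) and Cyp1a2 (0.20) were not called. Of 12 hepatocyte-defining genes 2 were higher, 2 lower and 8 not called, where 27.5% of all tested genes were called in either direction, with albumin (Alb) among the last (30921 and 37030 FPKM, 0.26, q = 0.716).

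Cell cycle genes were low and mostly lower: 11 of 17 fell, among them Mki67 (0.872 to 0.508 FPKM, -0.78, SE 0.17), Mcm2 (2.8 to 1.15, -1.28, q = 0.00342) and the inhibitor Cdkn1a (7.14 to 1.7, -2.07). Cyclin D1 (Ccnd1) was the member that rose, from 18.8 to 72.7 FPKM (1.95, SE 0.21). Endothelial genes were lower in 5 of 10 with none higher, the largest called fall being that of the sinusoidal scavenger receptor Stab2 (15.7 to 8.83 FPKM, -0.83). Of 9 cholangiocyte genes 3 fell, among them Epcam (2.15 to 1.11 FPKM, -0.96), and Tff3 rose (1.83 to 4.19, 1.20). Among genes that depend on growth hormone or male sex, 5 of 17 rose and 4 fell. Over all tested genes 11.8% rose and 15.7% fell, which stands beside every list count of this paragraph. Elovl3 rose from 26.8 to 75.5 FPKM (1.49) and Stat5b from 9.1 to 17.8 (0.97), while the urinary protein Mup3 fell from 3604 to 1112 (-1.70, SE 0.16). Of 5 tested blood cell genes, the globin Hbb-bs rose (139 to 182 FPKM, 0.39, q = 0.0151) and 4 were not called. The adipocyte protease Cfd was 29.7 with vehicle and 0.0504 at the mid dose (-9.20, q = 0.0567, not called), in livers where Adipoq, Lep and Plin1 were near 0. Of the intestinal genes, Lgals4 fell (15.8 to 6.67 FPKM, -1.24), and neither of the 2 tested pancreatic genes was called.

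The largest rises and falls were ranked among called genes with an FPKM of at least 1 in a group and no predicted or clone name. By that ranking the largest rises came mostly from genes outside the lists above. Ptgds, the lipocalin-type prostaglandin D synthase, rose from 3.39 to 4423 FPKM (10.35, SE 0.23), the largest finite called fold. Among called genes outside the mitochondrial genome it also had the largest gain in FPKM. Other large rises were those of Trpm6, a magnesium channel (0.022 to 8.51 FPKM, 8.59, SE 0.37), and Clic3, a chloride channel protein (0.643 to 131, 7.67, SE 0.65). The anion exchanger Slc4a9 (0.0445 to 3.33, 6.23), the protease Tmprss4 (0.666 to 48.4, 6.18), the axonemal dynein Dnah1 (0.0622 to 4, 6.01), the cytokine Tnfsf15 (0.0386 to 2.34, 5.92) and the signalling regulator Rgs8 (0.0484 to 2.72, 5.81, SE 1.65) rose steeply too, as did Slc51b. The largest falls in the same ranking were those of Cyp2b9, Mup11 (65.6 to 0.66 FPKM, -6.64), the pseudogene Serpina4-ps1 (21.2 to 0.311, -6.09), Cyp8b1, Vldlr, Serpina1e (191 to 6.53, -4.87), the syntenin Sdcbp2 (5.31 to 0.188, -4.82), Mogat1, the deiodinase Dio1, which activates thyroid hormone (80.8 to 5.23, -3.95), and the adhesion receptor Adgrv1 (23.5 to 1.54, -3.93). Mup and Serpina1 genes lie in families of near-identical copies, so their reads may be shared.

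By level and among called genes, the mitochondrial transcripts mt-Tc (44200 to 57717 FPKM, 0.38, q = 0.0294), mt-Tm (10588 to 17522, 0.73), mt-Nd1 (8585 to 13120, 0.61, q = 0.0175) and mt-Co1 (7435 to 11435, 0.62, q = 0.0336) gained most together with Ptgds. Of the called genes, Scd1, Mup3, the microsomal glutathione transferase Mgst1 (7274 to 5108 FPKM, -0.51, q = 0.0202), Cyp2e1 and Hp lost most. FPKM of transfer RNA genes is large because the genes are short, so these levels are not comparable with those of messenger RNAs.

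Fabp6, the ileal bile acid binding protein and a classical intestinal FXR target, was listed at 0 in the vehicle group and at 4.89 FPKM at the mid dose (q = 0.000361). It was at 12.4 FPKM at the low dose and 16.0 at the high dose, and at 0 with OCA and in the OCA vehicle group. The developmental transcription factor Pax2 was listed at 0 with vehicle and at 1.24 FPKM at the mid dose. An exact 0 in such a table can be a failed estimate, so no fold is given. Fabp6 and Pax2 are 2 of 14 called genes with a 0 in 1 of the groups, the others being pseudogenes, small RNAs and immune receptor segments.

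Around Ptgds many neighbouring genes rose together, a stretch chosen after its values were seen. Within 500 kb of the Ptgds start on chromosome 2 (Ptgds at chr2:25466709-25470046, GRCm38), 44 genes were tested, 14 were called higher and 3 lower. Over all tested genes 11.8% were higher and 15.7% lower. Of these 14, 10 rose by at least 2 on the log2 scale, against 199 called genes of all 15686 tested genes (1.27%). Ptgds, around which the window was set, is itself counted in the 44, the 14 and the 10, and the 199 include these 10. Clic3, 13.2 kb away, rose by 7.67, BC029214 by 4.92 and the lipocalin Lcn12 by 2.75 (q = 0.000681). Clic3 lies inside the span of BC029214 on the other strand, without exon overlap, so the rises of this pair may not be separate. Farther on, Tmem141, 152 kb away, rose from 16.2 to 538 FPKM (5.06), Obp2a by 4.24 and Bmyc by 1.97. The antisense gene Fcnaos rose by 5.56 (q = 0.00128) and its partner Fcna by 1.58, and strand use in counting is not known. Between Lcn12 and Fcnaos, C8g, a complement component, rose by 0.68, while Fbxw5 (0.15), Traf2 (0.16) and Edf1 (0.17) were among those not called. At the other doses, Clic3 was at 5.87 and 7.20, BC029214 at 3.37 and 4.49 and Tmem141 at 3.82 and 5.34 at the low and high dose. With OCA, BC029214 was at 1.37 and Tmem141 at 1.08, while 2.77 for Clic3 was not called (q = 0.139).

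**Figure D4:**
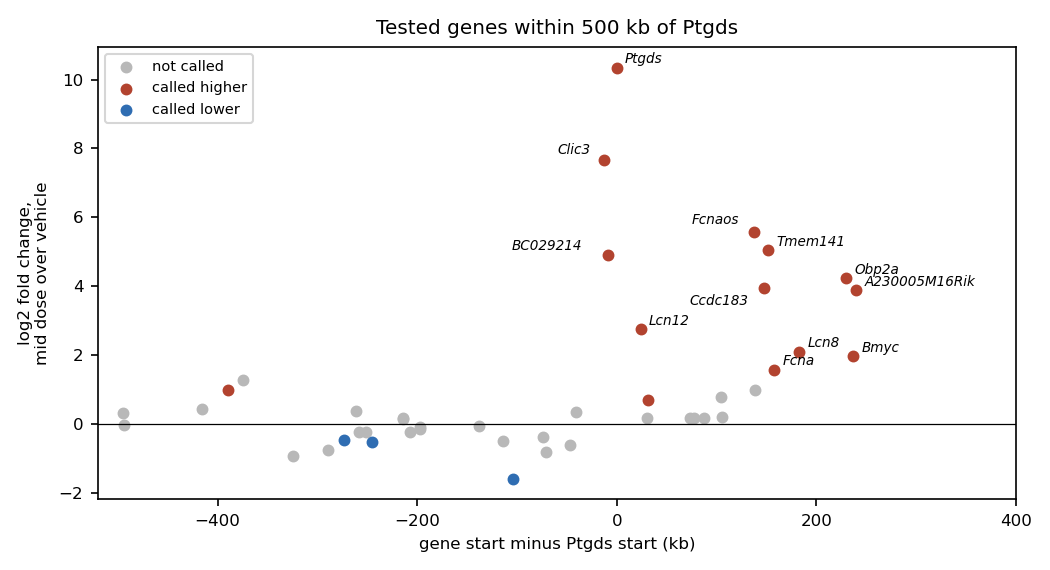
Log2 fold change of the mid dose over vehicle for the 44 tested genes within 500 kb of Ptgds, Ptgds included, against the distance of each gene's start from the Ptgds start (kb). Red points are called higher (14) and blue points called lower (3), and the 10 rises of at least 2 lie from Clic3 to A230005M16Rik among genes that were not called.

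Mid-dose livers were also set beside lean control. Against lean, 3523 of 15229 tested genes (23.1%) were called at the mid dose, 1776 higher (11.7%) and 1747 lower (11.5%), and 3190 of 15484 (20.6%) in the vehicle group, 1869 higher (12.1%) and 1321 lower (8.53%). These comparisons share the lean group, and the vehicle group also served the drug comparison, so values are given side by side and no count of reversals is drawn from them. The matrix list had a median of 1.78 with vehicle and -0.09 at the mid dose, inflammatory mediators 1.36 and 0.06, macrophages 1.14 and -0.06, cholesterol synthesis -1.52 and 0.51, and cell cycle 1.96 and 1.06. Gpnmb remained above lean at the mid dose (3.13, against 6.10 with vehicle), as did Spp1, which encodes osteopontin (1.02 and 2.35), Trem2 (1.15, q = 0.00115, and 3.55) and Cidec (2.10 and 4.46). Other genes lay farther from lean at the mid dose than with vehicle. Cyp8b1 was -6.22 and -1.17, Slco1a1 -5.12 and -2.21, Cyp4a14 -4.82 and -1.10, Mt2 -2.67 and 1.09, Slc51b 6.88 and 0.87, and Thrsp 2.60 and -0.29.

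OCA, the bile acid derivative, gave fewer calls than mid-dose tropifexor. Its comparison with its own vehicle called 634 of 15706 genes (4.04%), 284 higher (1.81%) and 350 lower (2.23%). The doses of the 2 compounds are not matched, so their values are set side by side, and no sample is shared between the 2 comparisons. Over 15195 genes tested in both, 203 were higher in both. That is 11.4% of the 1781 mid-dose rises, where 1.84% of all these genes rose with OCA. It is 72.8% of the 279 OCA rises, where 11.7% of all these genes rose at the mid dose. Likewise 275 were lower in both, 11.3% of the 2434 mid-dose falls, where 2.26% of all these genes fell with OCA. They are 80.2% of the 343 OCA falls, where 16.0% of all these genes fell at the mid dose. Opposite calls were few, 11 higher at the mid dose and lower with OCA and 23 the reverse. Onecut1, a hepatocyte and biliary transcription factor, fell at the mid dose (14.5 to 4.06 FPKM, -1.84) and rose with OCA (2.29), although against the OCA vehicle group the mid-dose value was 0.57. The B cell chemokine Cxcl13 rose at the mid dose (1.10, q = 0.0164) and fell with OCA (-2.32), with -0.53 against the OCA vehicle group. The other opposite calls named by the rule were Capn11 (-1.55 and 2.51), Sprr1a (-2.61 and 0.89), Gm16348 (-3.72 and 1.26), Gm7652 (-1.31, q = 0.00237, and 1.63), Elovl3 (1.49 and -1.03), the secreted signalling inhibitor Tsku (1.36 and -0.85), Mup12 (0.56, q = 0.00367, and -0.97) and Mup16 (0.45, q = 0.0245, and -1.54). For Mup16 the value against the OCA vehicle group was -0.018.

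The difference between the mid-dose and OCA effects was tested gene by gene, with errors implied by the authors' test statistics, a normal p and Benjamini-Hochberg adjustment over 15145 genes. It compares the treatments as given, not the compounds at a matched dose. It passed for 225 genes (1.49%), 100 more positive at the mid dose (0.66%) and 125 more negative (0.825%). FXR targets were among them: Nr0b2 rose by 2.55 at the mid dose and 0.75 with OCA, a difference of 1.80 (95% interval 1.07 to 2.53), and Slc51b by 6.01 and 2.72, a difference of 3.29 (95% interval 1.97 to 4.61). Cyp8b1 fell further at the mid dose by -2.08 (95% interval -2.94 to -1.23), and Sqle rose further by 2.96 (95% interval 2.07 to 3.84). Col1a1 was 0.02 with OCA (not called), a difference of -3.05 (95% interval -4.16 to -1.94), Gpnmb -0.28 (not called), a difference of -2.69 (95% interval -3.78 to -1.59), and Mt2 -0.11 (not called), a difference of -3.65 (95% interval -4.58 to -2.71). The largest differences were those of Ptgds, 6.93 (95% interval 5.73 to 8.13), and Cyp2b9, -6.81 (95% interval -8.86 to -4.75). For Abcb11 (2.18 and 0.76) and Cyp7a1 (-3.24 and -1.49) the difference was not called, and its intervals were wide: 1.42 (95% interval -0.22 to 3.07) and -1.74 (95% interval -4.22 to 0.73). By list, OCA called 9 of 25 cholesterol synthesis genes higher, 1 of 30 matrix genes lower and 2 higher, and 7 of 20 macrophage genes lower.

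The low and high doses of tropifexor were set beside the mid dose. Low-dose tropifexor called 1813 of 16144 genes (11.2%), 973 higher (6.03%) and 840 lower (5.2%), and the high dose 4015 of 15818 (25.4%), 1570 higher (9.93%) and 2445 lower (15.5%). All 3 doses were compared with the same vehicle animals, so their lists are not independent of each other. Of 23 inflammatory mediators, 3 were higher and none lower at the low dose, 20 were lower at the mid dose and 18 at the high dose, with medians of 0.26, -1.37 and -1.17. The matrix list had 12, 27 and 27 of 30 members lower and medians of -0.56, -1.73 and -1.59. Macrophage genes were lower in 3, 17 and 12 of 20, and cholesterol synthesis genes higher in 16, 23 and 21 of 25 (1 was lower at the high dose). Of 20 fatty acid and triglyceride synthesis genes, 9 fell at the low and 9 at the high dose while 0 and 3 rose, against 9 risen and 4 fallen at the mid dose.

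The difference between the mid-dose and low-dose effects passed the test for 65 of 15354 genes (0.423%), 53 of them more negative at the mid dose (0.345%) and 12 more positive (0.0782%). Ccl2 rose at the low dose (0.88, q = 0.0033) and fell at the mid dose, a difference of -2.49 (95% interval -3.74 to -1.25). Lcn2 was 0.64 at the low dose and -2.83 at the mid dose, a difference of -3.48 (95% interval -4.41 to -2.55), Mmp12 0.58 and -2.79, a difference of -3.38 (95% interval -4.42 to -2.33), and Spp1 0.63 and -1.33, a difference of -1.96 (95% interval -2.95 to -0.97). Gpnmb was -0.30 at the low dose (not called), a difference of -2.66 (95% interval -3.83 to -1.50), and Mt2 -0.52 (not called), a difference of -3.24 (95% interval -4.29 to -2.19). The protease Mmp7 (3.82, and -1.37 with q = 0.00184) and the female-biased Cyp2a4 (4.02 and -2.10) rose at the low dose and fell at the mid dose. Cyp2a4 is a close paralog of Cyp2a5, so reads could be shared, and it was low (0.978 FPKM with vehicle, 0.228 at the mid dose). Thrsp rose more at the mid dose, by 2.28 (95% interval 1.11 to 3.45). For Nr0b2 the difference was 0.69 (95% interval -0.19 to 1.56) and for Col1a1 -1.51 (95% interval -2.94 to -0.09), neither called.

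Between the mid-dose and high-dose effects, 49 of 15355 genes passed (0.319%), 33 more positive at the mid dose (0.215%) and 16 more negative (0.104%). Slc10a1 was -1.53, 0.23 and -3.35 at the low, mid and high dose, and the mid dose differed from the high dose by 3.58 (95% interval 2.79 to 4.36). Slco1a1 was -4.48, -2.90 and -6.35, a difference from the high dose of 3.45 (95% interval 2.42 to 4.47), and Cyp8b1 -6.68, -5.04 and -8.55, a difference of 3.51 (95% interval 2.31 to 4.71). In these 3 genes the mid-dose value was also the nearest to 0 of the 3 doses, although its difference from the low dose was not called for any of them (for Slc10a1 1.76 (95% interval 0.73 to 2.79)). Cyp7a1 kept that order (-4.17, -3.24 and -6.03) without a called difference, 2.80 (95% interval -1.78 to 7.37) from the high dose. The urinary protein Mup3 was -3.32, -1.70 and -5.29, a difference from the high dose of 3.59 (95% interval 2.70 to 4.49), and the progestin and adipoQ receptor family member Paqr9 -2.57, -2.19 and -6.08. Nqo1 rose at the low and high dose (1.59 and 1.72) and not at the mid dose (0.30), and the differences, -1.29 (95% interval -2.26 to -0.31) and -1.42 (95% interval -2.20 to -0.64), were not called after adjustment. Cbr3, another NRF2 target, did differ from the high dose (-0.14 at the mid dose and 2.21 at the high dose). For Nr0b2, Slc51b, Col1a1 and Ccl2 the mid dose and the high dose differed by -0.07 (95% interval -0.80 to 0.66), -0.07 (95% interval -1.49 to 1.35), -0.33 (95% interval -1.31 to 0.66) and -0.04 (95% interval -1.21 to 1.13), none called.

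**Figure D5:**
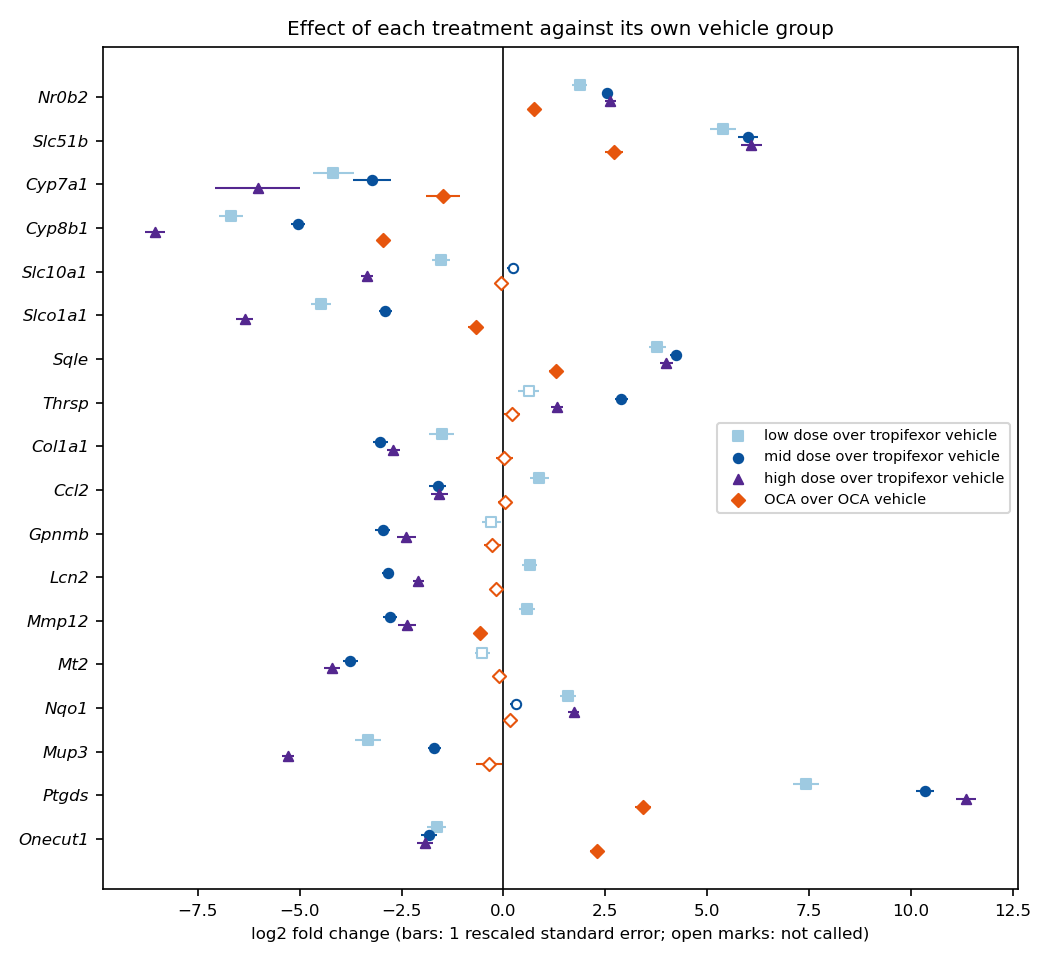
Log2 fold change over the matching vehicle group for 18 named genes at the low (squares), mid (circles) and high (triangles) dose of tropifexor and with OCA (diamonds). Bars are 1 rescaled standard error, filled marks are called and open marks are not. Slc10a1 is not called at the mid dose and lies at -3.35 at the high dose, whereas Lcn2 lies at 0.64 at the low dose and -2.83 at the mid dose.

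Finally, the mid-dose livers were set against the OCA vehicle group, NASH-diet animals that the main comparison did not use, through the lean control both tables share. With errors implied by the test statistics, 425 of 14866 genes passed (2.86%), 210 higher (1.41%) and 215 lower (1.45%). Both fold changes hold the lean group and no allowance was made for that, so the summed errors are larger than the comparison needs. A gene that did not pass is therefore left undecided. Nr0b2 (2.02), Slc51b (5.85), Sqle (4.61), Ptgds (10.64), Cyp8b1 (-4.60), Col1a1 (-2.58), Lcn2 (-2.70) and Mt2 (-3.82) passed in the direction of the main comparison. Cyp7a1 (-3.10), Abcb11 (2.21), Gpnmb (-2.63) and Ccl2 (-1.51) kept their sign and did not pass.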

How the data were processed

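Messenger RNA of 28 flash-frozen livers was extracted with Trizol and made into stranded TruSeq libraries, per the labels' protocols. The submitters' processing notes name bcl2fastq, STAR 2.5.1b, Cufflinks 2.2.1, Cuffnorm, Cuffdiff and the build GRCm38. Their roles, the annotation and the strand setting are not given in the sources used here. The authors deposited 10 Cuffdiff tables, of which 7 were used, each with 1 FPKM per gene for each of a pair of groups. The log2 fold change, test statistic, p-value and q-value per gene are the authors' own as well, and the deposited log2 fold change and test statistic were read as scores because infinite changes are written as very large numbers. Every FPKM, fold change, p and q of a single comparison printed here comes from the authors' deposited tables and carries no SD or n computed here, and depth per animal is unknown.

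Calls required the status OK with a deposited q-value under 0.05, which matched the authors' own flag for every gene. Gene models were taken from GENCODE M21 (47305 of 47719 IDs matched). An error was implied for each gene as the fold change divided by the test statistic. The normal z of a deposited p-value was larger than the test statistic by a median factor of 2.032 (genes with p from 0.0002 to 0.9), so the SE beside a single fold change is the implied error divided by that 1 factor, and it need not match the p of a given gene. Differences between treatments used the larger implied errors, a normal p-value and Benjamini-Hochberg adjustment, with no allowance for the vehicle group that the doses share. The comparison with the OCA vehicle group was run the same way, with no allowance for the shared lean group. Simulated data with known answers were run through these difference tests. Their noise was drawn from the smaller rescaled errors, independently for the 2 effects, even where doses share a vehicle group. The recovery below therefore holds only if the rescaled errors are the true ones. With implied errors, a true difference of 2 on the log2 scale was recovered for 36% of changed genes against OCA (15145 genes), 20% against the low dose (15354) and 32% against the high dose (15355), and a true difference of 1 for at most 1%. With rescaled errors a true difference of 2 was recovered for 82%, 70% and 79%, with 4, 7 and 7 false calls against 0 with implied errors. Python 3.11.15, numpy 2.4.6, pandas 2.3.3 and scipy 1.17.1 were used.

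Groups came from sample titles. The members and the 33 gene lists were chosen with earlier results of these data known. The 180 named genes were chosen as the 10 called genes with the largest finite rise and fall, the 5 with the largest gain and loss of FPKM, a fixed panel and the top genes of each list and difference test. The sets of 10 were limited to genes with an FPKM of at least 1 in a group and no predicted or clone name. Neighbours of Ptgds, gene families and other genes named beside them were chosen after their values were seen. Promoters were RefSeq's on GRCm38.p6. Some items are not reported here. No single animal could be left out, because no value per animal was used.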

Additional observations from a re-analysis of the deposited data

Results flagged for a closer look

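The mid-dose effect of tropifexor differed from the effect of another treatment, by the test of the difference itself, for 225 genes against OCA, 65 against the low dose and 49 against the high dose. Values below are the mid-dose log2 fold change minus the other one, and the low, mid and high doses share their vehicle animals. Neither of the 2 effects compared had itself been called by Cuffdiff for 14 of the 225 genes, 9 of the 65 and 19 of the 49.

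Against OCA, large positive differences were those of Ptgds (6.93), the anion exchanger Slc4a9 (5.07), the phospholipid acyltransferase Lpcat4 (5.02) and Akr1b7 (4.15). Lpcat4 rose from 1.15 to 36.8 FPKM at the mid dose and was -0.01 with OCA. The most negative were those of Cyp2b9 (-6.81), Cfd (-5.02), Gm16348 (-4.98), Serpina4-ps1 (-4.18) and Onecut1 (-4.12). Cfd had not itself been called at the mid dose (q = 0.0567), and it fell with OCA by 4.18 on the log2 scale.

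Against the low dose, the most negative differences were those of Cyp2a4 (-6.12), Mmp7 (-5.19), Sprr1a (-4.70), Gstp2 (-4.42) and Abcc12 (-3.89), all of which rose at the low dose and fell at the mid dose. Mup-ps17 (3.16), Mup7 (3.02), the phosphatase Acpp (3.01), Cyp2u1 (2.62) and Thrsp (2.28) were the most positive. Mup-ps17 was not called by Cuffdiff at any dose (q = 0.623, 0.844 and 0.338 at the low, mid and high dose). Acpp was -1.78 at the low dose, 1.23 at the mid dose and -0.06 at the high dose.

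Against the high dose, Mup7 (5.06), Mup-ps17 (4.08), Paqr9 (3.90), Mup3 (3.59) and Slc10a1 (3.58) were the most positive, with Mup-ps17 again not called at either dose. Mup7, one of many near-identical urinary protein genes, was 274 FPKM with vehicle and 343 at the mid dose (not called), with log2 fold changes of -2.70 and -4.74 at the low and high dose. The most negative were Cbr3 (-2.35), the diadenosine hydrolase Fhit (-2.30), Gstm3 (-2.23) and the small RNA genes Gm24299 (-2.21) and Snora33 (-2.20). Neither small RNA was called by Cuffdiff at any dose (for Gm24299 q = 0.731 at the mid dose and 0.721 at the high dose, for Snora33 0.768 and 0.568). Their differences rest on small errors taken from the test statistics (an SE of 0.02 for Gm24299 at the mid dose), beside a Cuffdiff q far from the threshold. Cbr3 (q = 0.721) and Fhit (q = 0.159) were not called at the mid dose.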

How the results depend on the processing

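No paired analysis was possible because the deposited tables hold 1 value per group, and for the same reason no replicate could be left out and a sample that stands apart could not be seen. Of the 4319 calls (1849 higher, 2470 lower), 1958 (666 and 1292) changed by at least 1 on the log2 scale. With a Bonferroni limit the counts were 0, 0 and 0 by construction, since the smallest Cuffdiff p times the number of genes exceeds 0.05. At a q of 0.01 the total was 3246, at 0.1 it was 5010, with FPKM of at least 1 in a group 3575, and, among settings added after seeing the data, 3104 without overlapping exons and 4052 in protein-coding genes outside the mitochondrial genome. With the OCA vehicle group as control the counts were 425 (210 higher, 215 lower) with implied errors and 2438 (1021 and 1417) with rescaled errors. Rescaled errors also raised the genes differing from OCA to 1824, from the low dose to 1577 and from the high dose to 357. With implied errors, the count of genes differing from the high dose was 28 in protein-coding genes outside the mitochondrial genome, against 49 in all genes. Genes called in the same direction by OCA numbered 478, and 290 at a q of 0.01 or 97 at a change of at least 1 in both. The share of all promoters with the inverted repeat went from 10.1% to 0.729% at 1 mismatch or fewer.

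Of the named genes with a value against the OCA vehicle group, 78 kept their call and direction, 81 kept only the direction, 2 became called and 4 changed sign: Cxcl13 (-0.53), Mup16 (-0.018), Onecut1 (0.57) and Slco1a4 (-0.19). Of 31 list medians, 13 moved there by more than the median error of their genes, and 4 changed sign (exporters, lipid droplets, blood cells and intestine). With a pseudocount of 1 FPKM 9 moved and none changed sign, and when centred none moved. The cause was not tested. A pseudocount of 1 FPKM moved 80 of 179 named fold changes by more than their error, and one of 0.1 moved 18, since genes low in a group shrink most.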

Other observations

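Gene families outside the lists, picked after their values were seen, showed further patterns at the mid dose. Of 45 tested genes for subunits and assembly factors of respiratory complex I (Nduf), 24 were higher, where 11.8% of all tested genes were, and none lower, with a median log2 fold change of 0.40. At the low dose and with OCA none of the 45 was called in either direction by Cuffdiff, and at the high dose 19 were higher. Among flavin monooxygenases, Fmo5 rose from 478 to 1042 FPKM (1.12), Fmo2 from 4.67 to 30.6 (2.71) and Fmo4 from 4.13 to 8.46 (1.03). Of 12 coagulation factors 7 rose and none fell.

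Heat shock genes were lower in 11 of 30 and higher in 3, where 15.7% of all tested genes were lower and 11.8% higher. The same shares stand beside the other mid-dose counts of this paragraph. The inducible chaperone Hspa1b fell from 3.48 to 0.313 FPKM (-3.47), Hspb1 from 16.7 to 4.58 (-1.87) and Hsph1 from 27.1 to 8.94 (-1.60). All 3 chains of complement C1q, made by macrophages, fell, from 74.1 to 38.9 FPKM for C1qa, from 86.8 to 41.8 for C1qb and from 64.3 to 30.8 for C1qc. Among 15 clock genes, which depend on the hour of sampling, 7 rose and 2 fell, with Cry1 at 1.35, Per3 at 1.23, Ciart at 1.21 and Bhlhe41 at -1.35 (q = 0.0207). The part of sampling time in any result was not tested. Of 28 tested major urinary protein genes, 7 rose and 10 fell at the mid dose, whereas 19 fell and none rose at the low and at the high dose. Of all tested genes, 5.2% fell at the low dose and 15.5% at the high dose. Reads of these near-identical genes may be shared.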
